A study of Mus musculus with 28 samples.

Results

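Cells given a p38 inhibitor before reprogramming and collected on day 3 of induction (pre-p38i day 3) were set beside control cells collected on day 5 (DMSO day 5). The pair holds 4 of the 28 libraries of the series, 2 for each group, and 2 of its 14 groups. Day 5 was chosen because, among the control days, its overall expression lay nearest to that of pre-p38i day 3. The pair was thus chosen by the measured expression values themselves, and its differences, their standard errors and its calls are given as a description, with no p-value. The question behind the pair is which genes still differ once the earlier day of the pretreated cells and the later day of the control cells are matched for stage. All cells were primary mouse embryonic fibroblasts (MEFs), labelled as wild type, and per the study's methods carried an Oct4-GFP (OG2) reporter and came from mid-gestation embryos of either sex, of OG2 fathers and 129 mothers. For reprogramming they received Sox2, Klf4 and Oct4 on retroviral pMXs vectors and were then induced in the chemically defined medium iCD1. The MEF libraries used below hold little message of these 3 genes. Their summed mean value was 19 without the inhibitor and 20 with it, against 4671 on DMSO day 1. In pre-p38i the inhibitor SB203580 was present before induction only, and in DMSO it was never present, although the labels of the control samples name no vehicle. The comparisons that share no library with the pair use 2 libraries each of DMSO days 1, 3 and 7, of pre-p38i days 1, 5 and 7, and of MEFs before induction with the inhibitor (MEF.p38i) or without it.

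Reprogramming turns a fibroblast into an induced pluripotent stem cell through a set order of steps. The fibroblast programme is lost first, an epithelial programme appears, and the endogenous pluripotency network starts last. The p38 kinases, of which Mapk14 encodes the main one in fibroblasts, carry stress and cytokine signals to the nucleus and control both transcription and the stability of many inflammatory messages. MEF cultures are mixed primary cultures, and macrophages of the embryo commonly persist in them.

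Each value is a whole number per gene and library, read here as a TPM (a transcript's share of its library, corrected for gene length) that the authors rounded down. The values of the 4 libraries sum to between 991287 and 991522, and those of all 28 to between 991287 and 992537. TPM hold no read number, so the depth is unknown and no interval for counting error is given. A difference below is a difference of means of log2(value + 1), with its standard error from limma over all 28 libraries, and it understates the change of genes with low values. A gene is called when its Benjamini-Hochberg adjusted limma p-value lies under 0.05, a threshold used for the pair as a yardstick only. No replicate pair of the series was identical, and whether replicate libraries came from separate cultures is not stated, so standard errors and p-values may measure technical spread. For a single gene, 2 libraries a group allow an exact permutation p of 0.333 at the least.

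By overall expression the match to day 5 was close to a tie with day 3. Over 13230 genes, the distance per gene (the root mean square of the log2 differences) was 0.439 between pre-p38i day 3 replicate 1 and the DMSO day 5 mean, against 0.460 to DMSO day 3 and 0.606 to DMSO day 7. For replicate 2 it was 0.441 to DMSO day 5, 0.4386 to DMSO day 3 and 0.593 to DMSO day 7. Replicate 1 was therefore nearer to day 5 and replicate 2 nearer to day 3 by a small margin. The 2 pre-p38i day 3 libraries lay 0.339 from each other. On a scale of progress where the MEF mean is 0 and the DMSO day 7 mean is 100, pre-p38i day 3 stood at 91.0 and 90.2, DMSO day 3 at 81.9 and 81.7, and DMSO day 5 at 95.1 and 95.4. Pre-p38i day 3 thus sat between DMSO days 3 and 5 on this scale, nearer to day 5 but short of it in both libraries. The label "stage-matched" holds to that extent, and differences that follow the control course between the days are part of the pair.

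**Figure D1:**
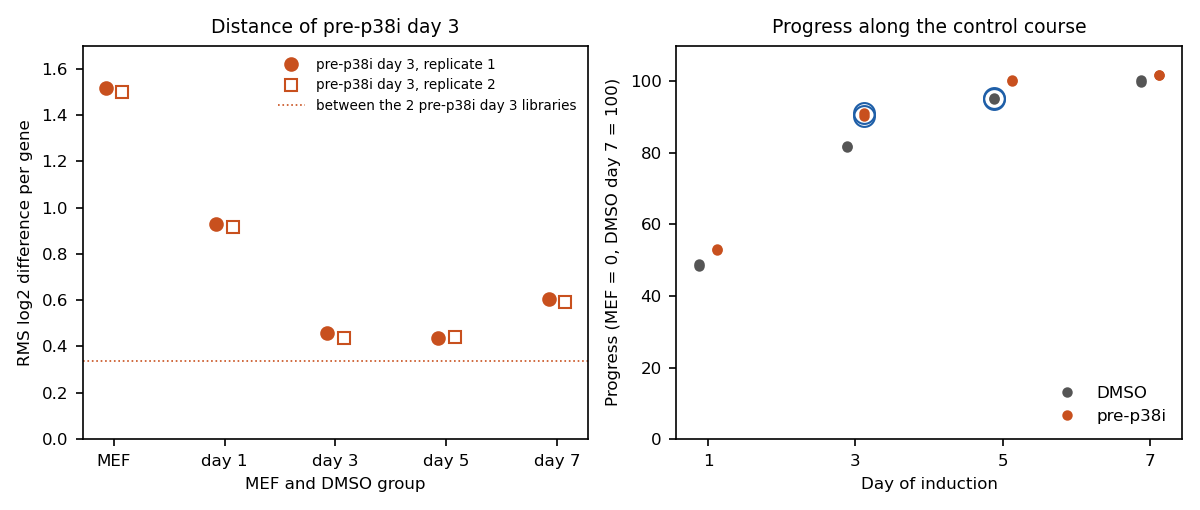
Left, distance of each pre-p38i day 3 library to the mean of MEFs and of each DMSO day, as the root mean square of log2 differences over genes, with the distance between the 2 libraries as a dotted line. Right, progress of each DMSO and pre-p38i library (1 point per library) against the day, with the pair ringed: pre-p38i day 3 at 91.0 and 90.2 lies below DMSO day 5 at 95.1 and 95.4.

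Of the 13230 genes tested, 1767 were called in the pair (13.4%), 770 higher in pre-p38i day 3 (5.82%) and 997 lower (7.54%), and the median difference over all genes was 0. The differences were small, with a size of at least 1 on the log2 scale in 305 of the called genes. Because the pair was picked for a small overall distance, these counts are not read as a sign of similarity or of difference. The shares of 5.82% and 7.54% are the background for every list count of the pair below. A count near them is not a result about the list.

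The control course was taken from DMSO day 7 minus day 3, in libraries outside the pair, although both days were also candidates when the control day was chosen. Between them 3098 genes rose (23.4% of those tested) and 2599 fell (19.6%). Of the genes that rose, 13.1% were lower and 5.2% higher in pre-p38i day 3 than in DMSO day 5. Of the genes that fell, 13.9% were higher and 10.1% lower. Among 2622 of the rising genes whose control means increased from day 3 to day 5 to day 7, pre-p38i day 3 lay between days 3 and 5 for 45.5%, between days 5 and 7 for 40.5%, short of day 3 for 7.44% and beyond day 7 for 6.52%. Among 2118 of the falling genes with steadily decreasing means, it lay between days 3 and 5 for 32.4%, between days 5 and 7 for 37.3% and beyond day 7 for 5.34%. The share short of day 3 was 24.9%, so for these genes pre-p38i day 3 was still above the DMSO day 3 mean. The positions were spread over the course, and pre-p38i day 3 did not stand at a single control day.

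Measured against the 10 libraries of the control path (MEFs and DMSO days 1, 3, 5 and 7), 670 genes lay above every one of them in both pre-p38i day 3 libraries and 215 lay below every one. Of these, 241 were called higher and 145 called lower in the pair.

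Pou5f1 (Oct4), which is read together with its retroviral copy, had values of 3774 and 3686 in pre-p38i day 3 and 2944 and 3117 in DMSO day 5 (0.30 ± 0.05, SE), and it was called higher. Sox2 (1137 and 1090 against 942 and 1018) and Klf4 (862 and 827 against 755 and 801) were not called. All 3 factors were higher in both pre-p38i day 3 libraries than in either DMSO day 5 library, and above every DMSO and MEF library. On day 1, in other libraries, Pou5f1 was also higher after pretreatment (0.39, adjusted p = 1.1e-05), and on day 7 it was lower (-0.24, adjusted p = 0.00044).

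Of 26 endogenous pluripotency genes 17 could be tested, and 0 were called higher and 2 lower in the pair (median -0.27). Over all genes 5.82% were called higher and 7.54% lower. Gdf3, a TGF-beta family ligand that is switched on late in reprogramming (ENSMUSG00000030117, chr6:122605403-122610087), had values of 9 and 10 in pre-p38i day 3 and 26 and 26 in DMSO day 5 (-1.36 ± 0.16). In the controls its mean was 5.5 on day 3 and 53.5 on day 7, so the pretreated cells lay between DMSO days 3 and 5. Nr5a2, a nuclear receptor that binds Oct4 regulatory DNA, read 1 and 1 against 3 and 2 (-0.79 ± 0.23). Nanog read 0 and 0 against 0 and 1. Esrrb, Dppa5a and Dppa3 were listed at 0 in all 4 libraries, and Zfp42 (Rex1), a marker of embryonic stem cells, read 10 and 13 against 14 and 14 (-0.27 ± 0.29, not called). On day 7, in other libraries, the Nanog mean was 28 after pretreatment and 14 in the control (0.96, adjusted p = 0.01). The comparison pre-p38i day 7 minus DMSO day 7 called 15.4% of all genes higher and 14.5% lower, and 6 of the 17 pluripotency genes higher.

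Of 24 epithelial genes tested, 1 was called higher and 5 lower in the pair (median -0.02), against 5.82% and 7.54% of all genes. Cdh1 (E-cadherin), the junction protein whose return marks the epithelial turn, read 66 and 65 in pre-p38i day 3 and 67 and 67 in DMSO day 5 (-0.03 ± 0.10). The DMSO day 3 mean of Cdh1 was 31.5, so this gene matched day 5 and not day 3. Krt8, a simple epithelial keratin, read 27 and 27 against 19 and 17 and was not called (0.56 ± 0.22). Cldn3, a tight junction claudin, read 3 and 2 against 2 and 2. The called genes included Cldn4, another claudin, at 1 and 1 against 5 and 3 (-1.29 ± 0.36). Spint1, an inhibitor of membrane serine proteases, read 3 and 3 against 8 and 9 (-1.25 ± 0.36), and its target protease St14 (matriptase) read 15 and 18 against 28 and 26 (-0.68 ± 0.14). Dsc2, a desmosomal cadherin, was higher at 16 and 17 against 10 and 12. The epithelial genes thus split, with Cdh1 level and Spint1, St14 and Cldn4 at the lower end. Spint1 and Cldn4 had low values and lost their calls with a pseudocount of 0.1.

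Of 16 mesenchymal factors and markers, 2 were called higher and 1 lower (median -0.08), against 5.82% and 7.54% of all genes. Twist1, a factor that holds the mesenchymal state, read 131 and 137 against 141 and 128, and Zeb1, a repressor of E-cadherin, read 14 and 15 against 15 and 19 (-0.21 ± 0.11). Prrx1, a factor of limb and craniofacial mesenchyme, was higher at 127 and 124 against 86 and 100 (0.43 ± 0.08), as was Tcf4 at 65 and 77 against 51 and 50. Cdh2 (N-cadherin) was slightly lower at 97 and 97 against 108 and 118.

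**Figure D2:**
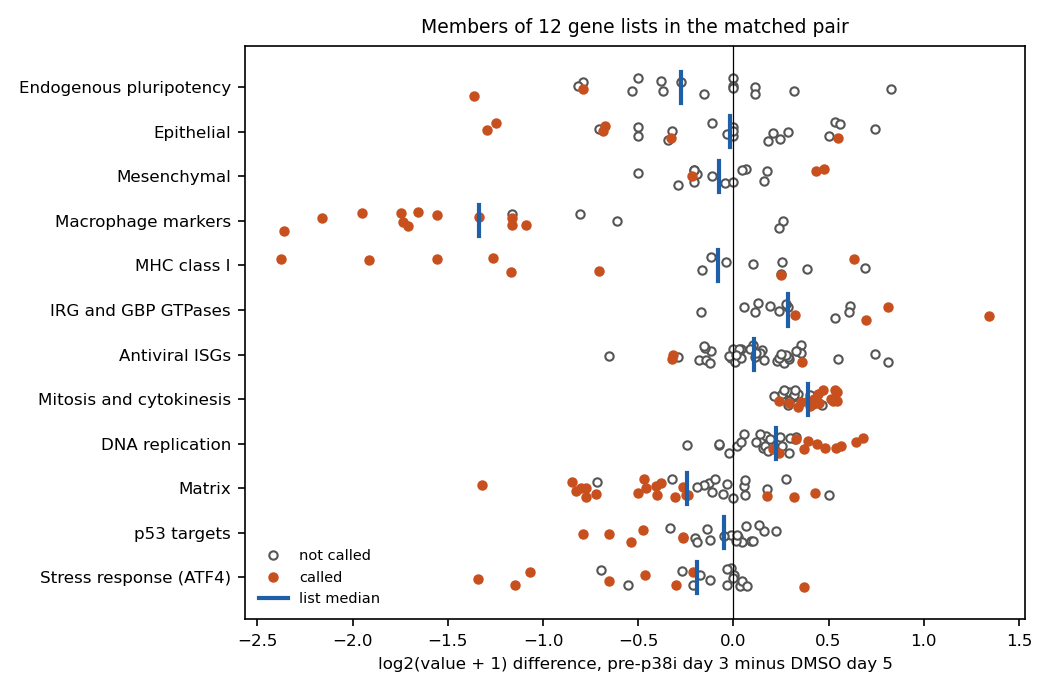
Differences of log2(value + 1), pre-p38i day 3 minus DMSO day 5, for the tested members of 12 gene lists. Each point is a gene, filled where it was called, and the bar is the list's median: -1.33 for the macrophage markers, 0.39 for the mitosis genes and -0.02 for the epithelial genes.

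Of 17 macrophage markers tested, 12 were called lower in pre-p38i day 3 and 0 higher (median -1.33), where 7.54% of all genes were called lower. Lyz2, the lysozyme of phagocytes (ENSMUSG00000069516, chr10:117277331-117282321), had values of 83 and 75 in pre-p38i day 3 and 270 and 261 in DMSO day 5 (-1.74 ± 0.10). C1qc, a chain of the complement component C1q that tissue macrophages make (ENSMUSG00000036896), read 6 and 4 against 26 and 25 (-2.16 ± 0.27), and C1qa and C1qb were lower likewise at 6 and 7 against 24 and 23, and at 8 and 6 against 25 and 20. Marco, a scavenger receptor, read 10 and 9 against 50 and 56 (-2.36 ± 0.28). Fcer1g, the signalling chain shared by Fc receptors, read 4 and 4 against 16 and 21 (-1.95 ± 0.35). Csf1r, the receptor for the main macrophage growth factor, was low throughout, at 1 and 1 against 4 and 3. No called marker overlapped between the groups, which the call on the same libraries already favours and which is no separate support.

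Some markers did not follow. Cd68, a lysosomal glycoprotein, read 59 and 55 against 44 and 51, and Mpeg1, a pore-forming protein, read 65 and 65 against 55 and 55. Neither was called. Cd163 was listed at 0 in all 28 libraries, and Aif1 and Ptprc never exceeded 2. The summed value of the 20 markers was 324 and 311 in pre-p38i day 3, 723 and 739 in DMSO day 5, 591 and 591 in DMSO day 3, and 457 and 467 in DMSO day 7. Pre-p38i day 3 thus lay under each DMSO day from 3 on. It was below the MEFs (383 and 362) but above pre-p38i day 1 (126 and 119) and MEF.p38i (259 and 260). In RNA from a whole culture, fewer cells of a type and less RNA per cell cannot be told apart.

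The macrophage genes were also lower in libraries outside the pair. On day 1, 11 of the 17 were called lower in pre-p38i than in DMSO and 0 higher, where the comparison called 5.4% of all genes higher and 6.24% lower. On day 7 the count was 16 lower, where 14.5% of all genes were. Before induction, MEF.p38i minus MEF called 9 lower, against 9.73% of all genes called higher and 8.15% lower. Lyz2 itself was not called there, at 134 and 132 in MEF.p38i against 154 and 152 in MEFs (-0.20, adjusted p = 0.2), but it was lower on day 1 (-1.96, adjusted p = 3e-10) and on day 7 (-3.54, adjusted p = 5.9e-15). In the next matched pair, pre-p38i day 5 minus DMSO day 7, which was chosen in the same way and called 9.96% of all genes higher and 4.36% lower, 10 of the 17 were called lower and 1 higher. Days 5 and 7 of pre-p38i are both compared with the same DMSO day 7 libraries there. The higher gene was Mpeg1 at 72 and 69 against 20 and 21.

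Among markers of other cell types the T cell gene Cd3g was called lower. Of 10 endothelial markers 5 were tested and 0 called by limma in the pair, 0 also at an unadjusted p under 0.05, and their summed value, most of it from Tek, was 65 and 64 in pre-p38i day 3 and 63 and 67 in DMSO day 5. Of 10 T and NK cell markers only Cd3g, a chain of the T cell receptor complex, was tested, and it read 18 and 17 against 52 and 50. The other 9 markers, Cd3e, Cd3d, Cd4 and Cd8a among them, were listed at 0 in these 4 libraries. Of 10 fibroblast markers 1 was called higher and 3 lower, with a summed value of 5050 and 5171 against 4757 and 5319.

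**Figure D3:**
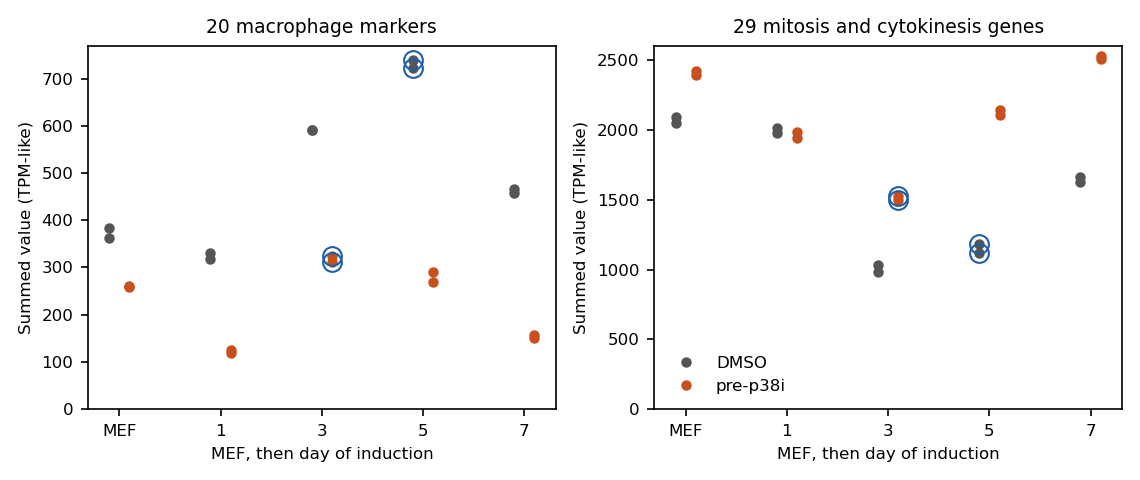
Summed value of the 20 macrophage markers and of the 29 mitosis and cytokinesis genes in each library of MEFs and DMSO days 1 to 7 (grey) and of MEF.p38i and pre-p38i days 1 to 7 (orange), with the pair ringed. The macrophage sum was 324 and 311 in pre-p38i day 3 against 723 and 739 in DMSO day 5, and the mitosis sum 1530 and 1501 against 1122 and 1183.

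Genes of the interferon response divided in the pair. Interferon turns on guanylate-binding proteins (GBP) and immunity-related GTPases (IRG) that attack intracellular pathogens, and the MHC class I machinery that displays peptides. Of 15 tested GBP and IRG genes 4 were called higher and 0 lower (median 0.29), while of 16 class I genes 6 were called lower and 2 higher (median -0.08). Over all genes 5.82% were called higher and 7.54% lower. Gbp2 (ENSMUSG00000028270, chr3:142620602-142638008) had values of 734 and 751 in pre-p38i day 3 and 299 and 285 in DMSO day 5 (1.34 ± 0.20). Its DMSO mean was 196.5 on day 3 and 83.5 on day 7, so the pretreated cells stood above every control day. Its neighbour Gbp2b read 275 and 275 against 112 and 104 (1.34 ± 0.14). Igtp (Irgm3), an IRG protein, read 398 and 437 against 244 and 231 (0.81 ± 0.23). Gbp7, which has a near-identical partial copy and is uncertain for that, read 102 and 108 against 63 and 66, and Irgm1 read 805 and 865 against 662 and 671. The other 11 GTPases differed by between -0.17 and 0.61.

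The sequences before the start of these genes show the element that the interferon factors read. The interferon-stimulated response element has a core of 2 copies of GAAA with 2 bases of any kind between them, searched on both strands of the RefSeq promoters of GRCm38.p6 (250 bases before to 50 after the start). It was found in 9 of the 10 GTPase genes with a promoter in that table (90%), in 14 of 30 antiviral genes (46.7%), in 4 of 14 class I genes (28.6%) and in 3.99% of all 27025 promoters. Stretches are shown for Gbp2 and Igtp, the listed genes with the highest differences, and for Gbp2b, which is not on the list and differed as much as Gbp2, each 5′ to 3′ on the plus strand with the core in capitals. In Gbp2 it lies 59 bases before the RefSeq start, on the minus strand, at chr3:142620413-142620622, in Gbp2b 137 bases before, on the minus strand, at chr3:142594597-142594846, and in Igtp 34 bases before, on the plus strand, at chr11:58199306-58199555.
Gbp2: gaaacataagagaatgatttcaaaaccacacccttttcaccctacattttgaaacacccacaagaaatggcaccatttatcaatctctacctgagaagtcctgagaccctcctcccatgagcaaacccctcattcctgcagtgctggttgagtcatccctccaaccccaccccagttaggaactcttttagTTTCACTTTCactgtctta
Gbp2b: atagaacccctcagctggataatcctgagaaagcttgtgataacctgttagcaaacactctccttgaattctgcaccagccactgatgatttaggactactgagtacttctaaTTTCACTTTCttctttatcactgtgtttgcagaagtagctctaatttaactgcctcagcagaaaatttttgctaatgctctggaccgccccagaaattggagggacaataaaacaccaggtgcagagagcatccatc
Igtp: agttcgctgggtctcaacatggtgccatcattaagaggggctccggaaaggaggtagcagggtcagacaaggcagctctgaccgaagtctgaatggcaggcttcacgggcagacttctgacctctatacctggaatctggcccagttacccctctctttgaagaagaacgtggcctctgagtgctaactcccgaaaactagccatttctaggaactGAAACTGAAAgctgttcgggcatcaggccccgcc
A match describes these letters and was not tested for binding.

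The GTPase counts were fragile in the pair, since only 1 of the 15 was called when any 1 of the 4 libraries was left out. Set against DMSO day 3 or DMSO day 7 in place of day 5, pre-p38i day 3 was higher in all 15 (an alternative added after seeing the data). Of all 13230 genes these alternatives called 1820 and 2413 higher. In pre-p38i day 5 minus DMSO day 7, in 4 other libraries, all 15 were called higher (9.96% of all genes), with a median of 1.62. In the controls, however, the summed value of the 17 listed GTPases fell from a mean of 3094.5 on DMSO day 5 to 1317 on day 7. It was 3603.5 on pre-p38i day 5, so the fall in the controls is part of that difference. Gbp2 had a mean of 414.5 on pre-p38i day 5 and 83.5 on DMSO day 7 (2.30, adjusted p = 3.8e-07), and Igtp 356.5 against 90 (1.98, adjusted p = 7.7e-06). On day 1, when the Gbp2 mean was 6.5 after pretreatment and 7.5 in DMSO, 0 of the 15 were called by limma (1 at an unadjusted p under 0.05). In MEF.p38i minus MEF 0 were called also (0 at an unadjusted p under 0.05). Called differences in these GTPases were thus seen on day 7 and in both matched pairs. Of the 17 listed, 13 were at 0 in both MEF libraries and 12 in both MEF.p38i libraries. On day 1, 9 were at 0 in DMSO and 9 in pre-p38i. With values so near the floor, the comparisons before day 3 cannot show whether a difference was present.

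Regulators of the pathway were mixed. Socs1, a feedback inhibitor of JAK kinases, read 32 and 38 against 16 and 15 (1.12 ± 0.25). Irf1, a factor that activates GBP genes, read 139 and 163 against 86 and 86 (0.80 ± 0.19). Ifngr2, a chain of the interferon-gamma receptor, was lower at 16 and 16 against 26 and 30 (-0.77 ± 0.10). Of 15 such genes 10 were tested, and the 5 interferon genes among them (Ifnb1, Ifng, Ifnl2, Ifnl3 and Ifna4) did not reach the minimum mean of 1. Of 40 antiviral interferon-stimulated genes 1 was called higher and 2 lower in the pair. Neither count exceeds the share over all genes (5.82% higher and 7.54% lower). Rnf213 was higher at 144 and 143 against 107 and 116, and Bst2 (tetherin) was lower at 984 and 1020 against 1291 and 1205. In the next matched pair 31 of the 40 were called higher and 0 lower, against 9.96% and 4.36% of all genes. Their summed value in the controls fell from a mean of 5157 on DMSO day 5 to 3503 on day 7, and was 5494 on pre-p38i day 5.

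The 6 class I genes called lower were heavy chains of the H2-K, H2-D and H2-Q groups and their partner. The heavy chains H2-T22 and H2-T23, also on the list, were not called. H2-K1 (ENSMUSG00000061232, chr17:33996017-34000333) had values of 519 and 490 in pre-p38i day 3 and 1591 and 1383 in DMSO day 5 (-1.55 ± 0.07). H2-D1 read 381 and 366 against 891 and 795, H2-Q4 read 113 and 112 against 274 and 268, and B2m, the light chain, read 3716 and 3500 against 6056 and 5699. The similar genes H2-Q6 (7 and 7 against 47 and 35) and H2-Q7 (15 and 17 against 67 and 59) were also lower. H2-K1, H2-Q6 and H2-Q7 share stretches of at least 95% identity over 200 bases with other H2 genes, H2-D1 and H2-Q4 included, so the separate values of these heavy chains are uncertain. The 2 class I genes called higher were Psmb10 and Tapbp. Psmb10, a subunit of the immunoproteasome, read 192 and 228 against 129 and 140 (0.63 ± 0.11), and Tapbp, which loads peptides, read 383 and 405 against 318 and 345 (0.25 ± 0.08). In the controls H2-K1 rose late, from a mean of 191 on DMSO day 3 to 1407 on day 7 (2.87, adjusted p = 8.6e-16), so on this gene pre-p38i day 3 lay between DMSO days 3 and 5, and 0 of the 6 were lower when DMSO day 3 was taken in place of day 5. In the next matched pair the order was the opposite, with an H2-K1 mean of 2303 on pre-p38i day 5 against 1407 on DMSO day 7 (0.71, adjusted p = 2e-06). All 16 class I genes were called higher there, where 9.96% of all genes were. The summed class I value in the controls fell from a mean of 9940 on DMSO day 5 to 8313 on day 7. It was 12637.5 on pre-p38i day 5.

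**Figure D4:**
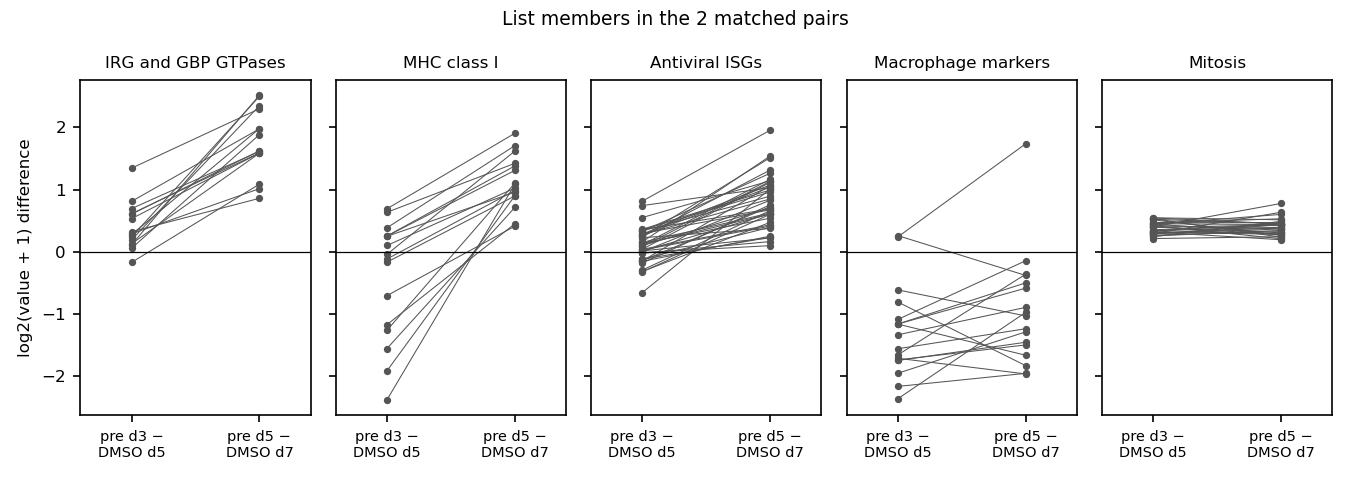
Differences of log2(value + 1) for each tested gene of 5 lists in pre-p38i day 3 minus DMSO day 5 (left in each panel) and in pre-p38i day 5 minus DMSO day 7 (right), joined by a line per gene. The GTPase median was 0.29 in the first and 1.62 in the second, and the mitosis median 0.39 in both.

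Genes of cell division were higher in pre-p38i day 3 by a small and even amount. Of 29 mitosis and cytokinesis genes 17 were called higher and 0 lower (median 0.39, range 0.21 to 0.55), where 5.82% of all genes were called higher. Aurka, the kinase that builds the spindle poles (ENSMUSG00000027496, chr2:172356190-172370535), had values of 67 and 64 in pre-p38i day 3 and 43 and 47 in DMSO day 5 (0.53 ± 0.07). Tpx2, which activates Aurka on the spindle, read 66 and 62 against 42 and 45 (0.55 ± 0.07). Ndc80, a kinetochore protein whose transcript shares sequence with other genes, read 25 and 24 against 17 and 16 (0.54 ± 0.10). Plk1, the polo kinase, read 75 and 73 against 51 and 52, and Ccnb2, a mitotic cyclin, read 71 and 72 against 48 and 51. Racgap1, Prc1 and Birc5, which act in the last step that splits the cell, were called higher as well, while Ect2, Anln and Cit of the same step were not called. No called gene of the list overlapped between the groups, but a call on the same libraries favours this, so it is no separate support.

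Many of these promoters hold the cell cycle genes homology region, TTTGAA, through which they are repressed outside division. It was found on either strand in 18 of 25 mitosis promoters (72%) and in 20.2% of all, and CCAAT in 72% and 41.1%, a search added after the data were seen. In the antiviral, GTPase, class I and replication lists TTTGAA was found in 20%, 50%, 7.14% and 12% of promoters. CCAAT was found there in 33.3%, 20%, 78.6% and 56%, so its share was highest in the class I list. The 30 bases around the element are shown for 2 of the genes with the largest differences, on the minus strand of chr2:172370521-172370550 and of chr17:71526811-71526840, 32 and 29 bases after the RefSeq start, with the element in capitals. In Ndc80 the element lies on the strand opposite to the one shown, so it reads TTCAAA there.
Aurka: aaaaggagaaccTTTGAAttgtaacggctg
Ndc80: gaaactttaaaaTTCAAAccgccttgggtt

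The summed value of the mitosis list was 1530 and 1501 in pre-p38i day 3, 1122 and 1183 in DMSO day 5, 980 and 1030 in DMSO day 3, and 1665 and 1630 in DMSO day 7. In the controls the sum was lowest on day 3, after 2051 and 2095 in MEFs and 2014 and 1975 on day 1. All 29 genes were called higher on DMSO day 7 than on day 3, where 23.4% of all genes were. On pre-p38i day 1 the sum was 1939 and 1986. By this sum pre-p38i day 3 thus lay between DMSO days 5 and 7, but also between DMSO days 1 and 3, so the sum sets no single stage. On Gdf3 and H2-K1 pre-p38i day 3 lay between DMSO days 3 and 5. Taken against DMSO day 3, all 29 were called higher in pre-p38i day 3, and against DMSO day 7 only 1 was. Of all 13230 genes these alternatives called 1820 and 2413 higher. On day 1, 0 of the 29 were called by limma between pre-p38i and DMSO (3 at an unadjusted p under 0.05), on day 7 28 were higher after pretreatment, in pre-p38i day 5 minus DMSO day 7 22, and in MEF.p38i minus MEF 11. In the same order, these comparisons called 5.4%, 15.4%, 9.96% and 9.73% of all genes higher.

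DNA replication genes shared the direction with smaller differences. Of 32 genes 11 were called higher and 0 lower (median 0.22), where 5.82% of all genes were called higher. Tyms, which makes thymidylate and shares sequence with a pseudogene and other genes, read 72 and 75 against 47 and 44 (0.68 ± 0.12), Tk1 (thymidine kinase) 82 and 89 against 58 and 51 (0.64 ± 0.11), and Cdc45, a part of the replicative helicase, 20 and 18 against 12 and 13 (0.57 ± 0.15). Among the 6 genes of the Mcm helicase core, Mcm4 and Mcm6 were called and Mcm2, Mcm3, Mcm5 and Mcm7 were not. Dnmt1, which copies DNA methylation at replication, and its partner Uhrf1 were slightly higher, at 83 and 82 against 68 and 73 and at 73 and 70 against 58 and 61.

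**Figure D5:**
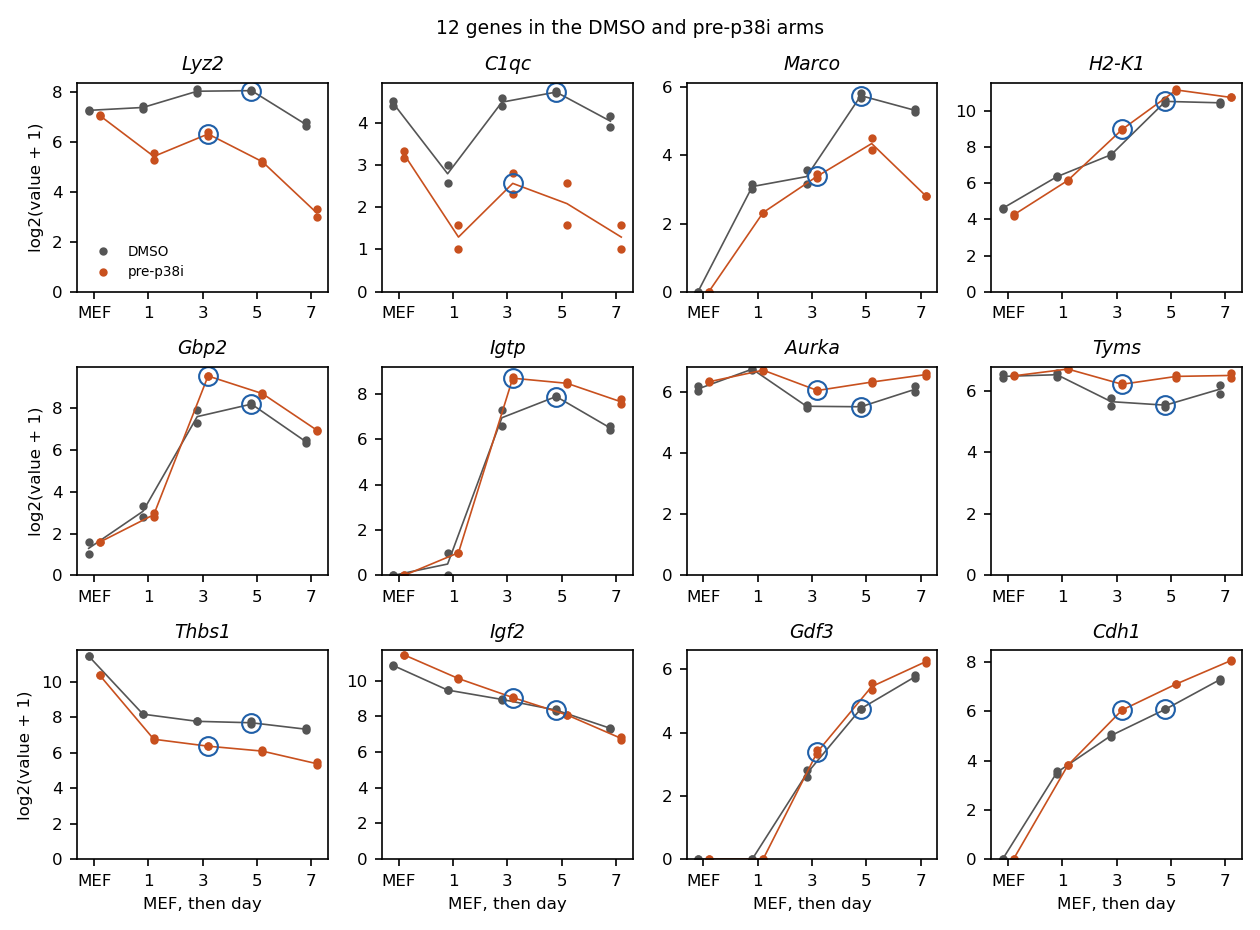
Values on the log2(value + 1) scale of 12 genes in MEFs and on DMSO days 1, 3, 5 and 7 (grey), and in MEF.p38i and on pre-p38i days 1, 3, 5 and 7 (orange). Points are libraries, lines join group means and rings mark the pair: Gbp2 stood above every DMSO day, Thbs1 and Lyz2 below DMSO day 5, and Cdh1 level with it.

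Matrix genes were on balance lower. Of 36 genes 17 were called lower and 3 higher (median -0.24), where 7.54% of all genes were called lower and 5.82% higher. Against DMSO day 3 or day 7 in place of day 5 the lower genes numbered 28 and 6. Of all 13230 genes 909 and 1776 were called lower in these alternatives. Thbs1, a matricellular glycoprotein that activates TGF-beta (ENSMUSG00000040152, chr2:118111876-118127133), had values of 82 and 82 in pre-p38i day 3 and 194 and 220 in DMSO day 5 (-1.32 ± 0.06). It lay below all 10 libraries of the control path, whose lowest group mean was 160.5 on DMSO day 7. Grem1, an antagonist of BMP, read 101 and 103 against 171 and 193 (-0.83 ± 0.05). Col1a2, a chain of type I collagen, was higher at 1535 and 1554 against 1076 and 1227, while Col1a1, its partner chain, was lower at 340 and 368 against 418 and 507. Thbs2 and Fbln2 were the other genes called higher.

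Thbs1 was also lower after pretreatment in MEFs and on days 1 and 7, outside the pair. Its mean was 1343.5 in MEF.p38i and 2817.5 in MEFs (-1.07, adjusted p = 5.2e-10), 108 against 289.5 on day 1 (-1.42, adjusted p = 4e-11), and 41 against 160.5 on day 7 (-1.95, adjusted p = 3.8e-14). Of the 36 matrix genes 25 were called lower in MEF.p38i, where 8.15% of all genes were, 18 on day 1 (6.24% of all genes) and 33 on day 7 (14.5% of all genes). Matrix genes also fall with time in the controls, where 31 of the 36 were lower on DMSO day 7 than on day 3 (19.6% of all genes). Contractile genes were mixed in the pair, with 3 higher and 2 lower of 13. Actg2, a smooth muscle actin, read 90 and 103 against 41 and 40 (1.23 ± 0.12), while Tagln (transgelin) read 14 and 13 against 20 and 18 (-0.46 ± 0.13) and Acta1 0 and 0 against 2 and 1.

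Of 23 genes of the p53 response 6 were called lower and 0 higher (median -0.05), where 7.54% of all genes were called lower. Trp53 itself read 170 and 165 against 184 and 199 and was not called (-0.19 ± 0.07). Pmaip1 (Noxa), which triggers apoptosis, read 12 and 12 against 20 and 23 (-0.79 ± 0.11), Gadd45a, a growth arrest gene, 72 and 71 against 108 and 118 (-0.65 ± 0.08), and Plk3, a stress kinase, 18 and 14 against 23 and 24 (-0.54 ± 0.14). Mdm2, the ubiquitin ligase of p53, was lower at 152 and 159 against 187 and 187. The most abundant target, Cdkn1a (p21), was level at 1063 and 1061 against 1027 and 1033. In MEF.p38i minus MEF 9 of the 23 were called lower and 1 higher, against 8.15% and 9.73% of all genes. Pmaip1 had a mean of 7.5 in MEF.p38i against 27 in MEFs (-1.72, adjusted p = 7.1e-10). Several of these genes respond to other stresses too.

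Of 22 genes of the ATF4 stress response 7 were called lower and 1 higher. For this list and the 2 lists below, 7.54% of all genes called lower and 5.82% called higher are the background. Slc7a11, the cystine carrier, read 5 and 6 against 14 and 17 (-1.34 ± 0.15), Nupr1, a small stress-induced chromatin protein, 158 and 144 against 331 and 339 (-1.15 ± 0.10), and Stc2, a secreted glycoprotein, 4 and 4 against 9 and 10 (-1.07 ± 0.25). The gene called higher was Phgdh. Atf4 and its amino acid synthesis targets Asns, Psat1 and Mthfd2 were not called, and the other lower members were Ddit3 (CHOP), the amino acid carriers Slc3a2 and Slc7a5, and the tRNA synthetase Sars. In MEF.p38i minus MEF 16 of the 22 were called lower, against 8.15% of all genes. Nupr1 had a mean of 34.5 in MEF.p38i against 130 in MEFs (-1.88, adjusted p = 6.4e-11). Of 24 glycolysis and hypoxia response genes tested 6 were called lower and 2 higher (median -0.13). The lower genes included the glucose carriers Slc2a1 at 42 and 40 against 67 and 62 and Slc2a3 at 13 and 13 against 22 and 22, and hexokinase Hk2 at 38 and 38 against 60 and 58. The higher genes were Tpi1 and Ldha. Of 27 sterol and lipid synthesis genes 5 were lower and 2 higher, with Scd1 at 351 and 320 against 399 and 457 and Fdft1 at 157 and 144 against 119 and 126.

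Genes of the p38 pathway were called about as rarely as all genes, of which 5.82% were called higher and 7.54% lower. Of 13 genes tested only Dusp1, a phosphatase that inactivates p38, was called, at 42 and 42 against 31 and 30 (0.45 ± 0.10). Mapk14 (p38 alpha) read 40 and 41 against 41 and 39 (0.02 ± 0.07). Of 9 AP-1 genes Fos alone was called, at 21 and 16 against 9 and 10 (0.88 ± 0.21), while Jun, Junb and Fosl1 were not. The inhibitor acts on the protein, so messages of the kinase do not report on its activity.

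Igf2, the fetal insulin-like growth factor (ENSMUSG00000048583, chr7:142650766-142666816), had values of 533 and 528 in pre-p38i day 3 and 312 and 338 in DMSO day 5 (0.71 ± 0.04). Its mean was already 2776.5 in MEF.p38i against 1839 in MEFs (0.59, adjusted p = 1.3e-08) and 1108 against 708.5 on day 1 (0.64, adjusted p = 1.6e-08). It was lower on day 7, at 107.5 against 159.5 (-0.57, adjusted p = 1.2e-08). Dlk1, a Notch-related growth regulator, read 7 and 10 against 3 and 4 (1.07 ± 0.18), with a mean of 180.5 in MEF.p38i against 76 in MEFs (1.24, adjusted p = 5.2e-05). Gpc3, a glypican that holds growth factors at the cell surface, read 13 and 14 against 3 and 2 (2.06 ± 0.22), with 104.5 in MEF.p38i against 20 in MEFs (2.33, adjusted p = 3.2e-07). Both were thus higher before induction, and their values fell during it. Of the 19 imprinted genes tested 4 were called higher and 2 lower, and H19, the neighbour of Igf2, was not called.

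Among genes whose 4 libraries averaged 5 or more, the lowest differences were those of Cd74, Prl2c3, Cxcl1, Prl2c2, H2-Q6, Marco, Saa3, Dmgdh, Cyp26a1 and Egfl6. They were ranked by the values that define the pair and are a description. Cd74, the invariant chain of MHC class II, read 0 and 2 in pre-p38i day 3 and 10 and 9 in DMSO day 5 (-2.60 ± 0.31). Prl2c3, a proliferin hormone (ENSMUSG00000056457, chr13:12790822-12800078), read 13 and 12 against 70 and 72 (-2.42 ± 0.20), and Prl2c2, whose transcript is nearly identical, 34 and 33 against 180 and 179, so the reads of these genes cannot be separated with certainty. Cxcl1, a neutrophil chemokine, read 3 and 4 against 25 and 20 (-2.39 ± 0.42), and Saa3, an acute-phase protein, 19 and 17 against 93 and 98 (-2.35 ± 0.18). Dmgdh, a mitochondrial enzyme of choline breakdown, read 4 and 4 against 24 and 24, Cyp26a1, which degrades retinoic acid, 4 and 4 against 27 and 21, and Egfl6, an EGF-repeat protein, 23 and 23 against 109 and 111. All but the proliferins rose in the controls. Dmgdh rose from a mean of 2 on DMSO day 3 to 73 on day 7 (4.62, adjusted p = 2.5e-15), and Cd74, Cxcl1, Saa3, Cyp26a1, Egfl6, H2-Q6 and Marco were called higher on day 7 as well. Prl2c2 was not called there, and Prl2c3 fell from 83.5 to 43 (-0.93, adjusted p = 0.0011). They were also low before induction, with Prl2c3 at a mean of 0 in MEF.p38i and 17 in MEFs (-4.17, adjusted p = 3.3e-11).

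The highest were S100a9, Nsg2, Trpv1, Gpc3, Prkcb, Spink2, Cdh26, Gsto2, Cyp4f39 and Msc. S100a9, a calcium-binding protein of neutrophils and stressed epithelia (ENSMUSG00000056071, chr3:90692632-90695721), read 16 and 18 against 2 and 0 (3.38 ± 0.40) and lay farthest above the control path. Nsg2, a neuronal endosome protein, read 11 and 12 against 1 and 1 (2.64 ± 0.31), Trpv1, a cation channel, 10 and 10 against 2 and 1 (2.17 ± 0.41), and Prkcb, a protein kinase C, 25 and 27 against 5 and 9 (1.80 ± 0.24). Msc (musculin), a repressor of muscle differentiation, was the most abundant of them at 151 and 129 against 51 and 48 (1.48 ± 0.14). Spink2 read 7 and 10 against 2 and 2, Cdh26 8 and 11 against 2 and 3, Gsto2 13 and 17 against 5 and 4, and Cyp4f39 45 and 40 against 14 and 14. All but Gpc3 were called lower on DMSO day 7 than on day 3, so for 9 of these 10 genes the higher value lay towards the earlier control day. Msc was also above every control library, with a DMSO day 3 mean of 91.5, as were S100a9, Nsg2, Trpv1 and Prkcb.

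By distance from the control path the genes farthest above were S100a9, Ltf, Gbp2, Gbp2b and Nsg2, and those farthest below Fcer1g, Thbs1, Glipr1, Mgp and Plaur. Ltf (lactotransferrin) read 26 and 31 against 12 and 8 and was not called. Glipr1, a secreted protein of the CAP family, read 9 and 9 against 17 and 19 (-0.92 ± 0.23), Mgp, an inhibitor of calcification, 27 and 25 against 62 and 39 (-0.90 ± 0.18), and Plaur, the urokinase receptor, 58 and 66 against 103 and 99 (-0.70 ± 0.10). Glipr1 and Plaur were lower in MEF.p38i too, Plaur at a mean of 139.5 against 281 (adjusted p = 7.7e-07), while Mgp was not called there (188.5 against 163.5, adjusted p = 0.51). Genes of stratified epidermis appeared at low level in both groups of the pair. Of 16 tested, 1 was higher and 3 lower: Krt6a, which shares sequence with Krt6b, read 18 and 17 against 8 and 9, Crct1 3 and 5 against 19 and 13, Trp63 5 and 6 against 10 and 11, and Tgm1 16 and 16 against 27 and 25.

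Calls of the pair were set beside those of comparisons that share none of its libraries. Of the 770 genes higher in the pair, 379 (49.2%) were also called higher and 8 lower in pre-p38i day 5 minus DMSO day 7, which is 28.8% of the genes higher there. Of the 997 lower genes, 269 (27%) were called lower and 36 higher, or 46.6% of the genes lower there. Over all genes 9.96% were called higher and 4.36% lower in that comparison. On day 1, 205 of the 770 were higher after pretreatment and 17 lower, and of the 997, 311 were lower and 45 higher. That comparison called 5.4% of all genes higher and 6.24% lower. On day 7, 272 of the 770 were higher and 117 lower, and of the 997, 493 were lower and 101 higher. That comparison called 15.4% of all genes higher and 14.5% lower, so the 117 (15.2%) lay near the share over all genes. In MEF.p38i minus MEF 200 of the 770 were higher and 75 lower, and of the 997, 259 were lower and 105 higher. There 9.73% of all genes were higher and 8.15% lower, so the 75 (9.74%) and the 105 (10.5%) lay near those shares. Called genes are not independent of each other, and these counts were not tested.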

How the data were processed

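Values were taken from 1 deposited table of mouse genes, with a column per library. Its scores are whole numbers that sum to nearly the same total in every library, so they were read as TPM that the authors rounded down, and they hold no read depth. The submitters' processing notes name Bowtie2 2.2.5, RSEM 1.3.0 and bcl2fastq, and the builds mm10 and hg38, with no role for either. Gene locations are those of GRCm38. No sample column was left unused. The 27 date-like gene names were replaced, by gene identifier, with GENCODE symbols where one was found.

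Groups came from the sample labels. Differences of log2(value + 1) were fitted with limma 3.58.1 (R 4.3.3, lmFit and eBayes with a trend) over all 28 libraries as 14 group means with 14 residual degrees of freedom, for 13230 of 50600 genes with a mean of at least 1. P-values were two-sided and Benjamini-Hochberg adjusted over these genes, with a threshold of 0.05. The code was tested on simulated data. The same model gave the comparisons that share no library with the pair, of which 3 share the DMSO day 7 libraries. The control path was the 10 libraries of MEFs and DMSO days 1 to 7. The replicate numbers did not pair the samples (correlation of same-numbered deviations -0.05 in the pair, and between -0.08 and 0.09 over all pairs of groups).

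The pair, the 25 gene lists and the tests were chosen with earlier results of these data known. Named genes were the 10 highest and 10 lowest called genes averaging 5 or more, with no overlap and a proper symbol; up to 3 called members of each list in each direction; genes the study names; and the 5 genes farthest above and below the control path. Other genes were named after their values were seen. Promoters came from RefSeq, and near-identical transcripts were found with BLAST 2.17.0+ (at least 95% identity over 200 bases). The TTTGAA and CCAAT searches and control days 3 and 7 were added after the data were seen. Alternatives were the pseudocount, the filter, the scaling, the libraries fitted, a minimum fold, a replicate block and leaving out each library. Some items are not reported here.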

Additional observations from a re-analysis of the deposited data

Results flagged for a closer look

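Between day 1 and day 7 the effect of pretreatment (pre-p38i minus DMSO of the same day) changed in 48 of the 114 named genes tested (42.1%) and in 2207 of all 13230 genes (16.7%), by the limma test of that change with an adjusted p under 0.05. This comparison shares no library with the pair. The named genes were chosen for their differences in the pair and no cause was tested. With 2 libraries a group, single libraries that stand apart could not be looked for.

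The log2 change of the effect was positive, so that pre-p38i stood higher relative to DMSO on day 7 than on day 1, in Uhrf1 (0.33), Dnmt1 (0.38), Tapbp (0.48), Cdh1 (0.49), Phgdh (0.49), H2-K1 (0.51), Ldha (0.51), Aurka (0.52), Rnf213 (0.53), Actg2 (0.55), Tpi1 (0.57), Tpx2 (0.59), Bst2 (0.66), Ndc80 (0.72), Fbln2 (0.77), Pmaip1 (0.82), Plk3 (0.83), H2-Q6 (0.96), Rian (1.12), Gsto2 (1.12), H2-Q7 (1.16), Acta1 (2.59) and Cldn4 (2.86).

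The change was negative in Gpc3 (-2.66), Grem1 (-1.94), Cyp26a1 (-1.82), Marco (-1.75), Fos (-1.55), Dcn (-1.51), Cdh26 (-1.47), C1qc (-1.25), Dlk1 (-1.23), Igf2 (-1.21), Postn (-1.18), Tagln (-1.14), Egfl6 (-1.08), Thbs2 (-1.05), Mgp (-1.02), Twist1 (-0.75), Pou5f1 (-0.63), Zeb1 (-0.59), Hk2 (-0.56), Thbs1 (-0.53), Plaur (-0.50), Dusp1 (-0.50), Prrx1 (-0.36), Col1a2 (-0.32) and Cdh2 (-0.23).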

How the results depend on the processing

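Of 1767 genes called in the pair, 770 higher and 997 lower, a fit of the 4 libraries alone called 390, 149 higher and 241 lower, with 6 macrophage and 4 matrix genes lower and 2 mitosis genes and 1 replication gene higher. A minimum size of 1 on the log2 scale left 305, 61 higher and 244 lower, with 0 mitosis, 0 replication and 1 GTPase gene higher and 1 matrix gene lower. The GTPase count was 1 with a pseudocount of 0.1 and 2 with no filter. With DMSO day 3 as the control (added after seeing the data) 2729 genes were called, 1820 higher, with 29 mitosis, 25 replication and 15 GTPase genes higher, and 28 matrix and 0 class I genes lower. With DMSO day 7 there were 4189, 2413 higher and 1776 lower, with 1 mitosis, 1 replication and 15 GTPase genes higher and 6 matrix genes lower.

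Leaving out each library in turn gave 1012 to 1266 calls, 404 to 545 higher and 493 to 779 lower, with 11 to 12 macrophage, 12 to 16 matrix and 6 class I genes lower, and 13 to 16 mitosis, 7 to 9 replication and 1 GTPase gene higher. The other comparisons gave 4432 to 4930 (DMSO day 7 minus day 3), 856 to 950 (day 1), 2640 to 2866 (day 7), 1010 to 1085 (pre-p38i day 5 minus DMSO day 7) and 1515 to 1676 (MEFs).

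The distance to DMSO day 3 exceeded that to day 5 by 0.00956, by 0.0307 with a minimum mean of 5, and by -0.00243 to 0.0215 with 1 library left out, so that without replicate 1 of pre-p38i day 3 the nearest day was day 3. The distance to DMSO day 7 exceeded it by 0.160, by 0.572 over the 500 most variable genes, 0.173 after quantile normalization, 0.186 with a pseudocount of 0.1, and 0.152 to 0.167 with 1 library left out. Off the control path, a gap of at least 1 left 4 genes above and 6 below, and quantile normalization gave 409 below instead of 215.

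Replicate numbers paired no samples. The replicate block gave 1746 calls in the pair and changed no call of a named gene. Quantile normalization moved the higher share of calls from 43.6% to 47.8%. Of 100 named genes called, 73 lost the call under some setting, 68 of them in the fit of the 4 libraries alone, and none reversed. The cause of these changes was not tested. Depth is unknown, so low values carry an unknown counting error.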
